A study of Homo sapiens with 6 samples.

Results

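The genes described here encode 9 enzymes of serine synthesis and one-carbon folate metabolism: PHGDH, PSAT1, PSPH, SHMT1, SHMT2, MTHFD1, MTHFD2, MTHFD1L and ALDH1L2. They were chosen by name from the 60545 rows of the deposited gene count table, each name matched 1 row, and all 9 were among the 15773 genes that passed the filter on low counts. RNA was sequenced from PC3 cells, which grew out of a bone metastasis of human prostate cancer, in 3 samples treated with RSM3, which the series title calls a peptide, and 3 Control samples. Both groups were grown in RPMI-1640, a medium that supplies serine and glycine, with fetal bovine serum. The dose, the duration of exposure and what the Control cells received are not given in the labels, nor is it said whether replicates were separate cultures, so each p-value measures the spread between these samples only, which may be technical.

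Serine is made from the glycolytic intermediate 3-phosphoglycerate in 3 steps, catalysed by PHGDH, PSAT1 and PSPH. Serine hydroxymethyltransferases then move a carbon of serine to tetrahydrofolate, giving glycine, and the folate-bound carbon passes through a mitochondrial branch (SHMT2, MTHFD2, MTHFD1L, ALDH1L2) or a cytosolic branch (SHMT1, MTHFD1) towards purines, thymidylate and methyl groups. Many of these genes are known targets of ATF4, the transcription factor of the amino acid response, and MTHFD2 is known to be high in proliferating tumour cells and low in most adult tissues.

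RSM3 libraries had less mRNA of the serine synthesis genes PHGDH and PSAT1 and more of the mitochondrial folate gene MTHFD2 than Control libraries. PHGDH fell by 0.40 ± 0.09 and PSAT1 by 0.35 ± 0.09 on the log2 scale (SE), while MTHFD2 rose by 0.51 ± 0.08. The other 6 genes did not pass the test (quasi-likelihood test of edgeR, with a threshold of 0.05 on p adjusted over all genes by Benjamini-Hochberg). Thus 3 of 9 were called, against 4.20% of all genes tested, with 1 higher, against 3.09%, and 2 lower, against 1.10%. The groups did not overlap for 5 of the 9, against 23.9% of all genes tested. These enzymes were chosen with earlier results of these data known, so the counts describe them and do not show that they stand apart from other genes.

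The starts of the 3 genes that passed are shown first, since the mRNAs of PHGDH and PSAT1 moved together and that of MTHFD2 moved the other way. Each window is RefSeq sequence of GRCh38.p14 on the plus strand, from 250 bases before to 50 bases after the start of the gene, read 5′ to 3′. The windows lie at chr1:119711684-119711983 for PHGDH, chr9:78296875-78297174 for PSAT1 and chr2:74198365-74198664 for MTHFD2, and that of PHGDH lies inside the span of the gene in GENCODE 29. Capitals mark matches, on either strand, to any of 5 motifs that were searched. These were TGATGNAA, the core of the composite element bound by ATF4 with C/EBP proteins, CACGTG, the E-box of MYC-family factors, CCAAT, the box bound by NF-Y, TGACNNNGC, the core of the antioxidant response element bound by NRF2, and GGGCGG, the GC box.
PHGDH: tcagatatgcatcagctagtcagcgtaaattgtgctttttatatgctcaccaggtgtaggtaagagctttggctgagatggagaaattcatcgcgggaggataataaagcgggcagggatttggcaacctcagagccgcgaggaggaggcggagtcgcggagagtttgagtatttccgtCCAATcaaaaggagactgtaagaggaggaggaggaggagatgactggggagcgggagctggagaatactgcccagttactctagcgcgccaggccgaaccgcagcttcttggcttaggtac
PSAT1: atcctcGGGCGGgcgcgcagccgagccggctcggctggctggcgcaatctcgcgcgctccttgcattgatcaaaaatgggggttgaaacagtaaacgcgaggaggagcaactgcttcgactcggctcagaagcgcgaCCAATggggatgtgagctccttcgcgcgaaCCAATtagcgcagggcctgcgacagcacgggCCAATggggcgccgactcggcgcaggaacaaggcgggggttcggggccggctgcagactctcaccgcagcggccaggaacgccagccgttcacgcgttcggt
MTHFD2: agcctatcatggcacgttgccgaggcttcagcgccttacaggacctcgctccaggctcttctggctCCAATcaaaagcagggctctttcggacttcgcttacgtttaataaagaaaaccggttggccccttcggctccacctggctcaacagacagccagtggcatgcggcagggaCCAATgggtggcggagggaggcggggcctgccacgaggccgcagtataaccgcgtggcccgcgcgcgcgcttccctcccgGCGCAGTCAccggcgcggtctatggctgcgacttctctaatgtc

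All 3 windows held CCAAT, with 1 match in PHGDH at position −71 from the start, 3 in PSAT1 at −113, −83 and −52, and 2 in MTHFD2 at −184 and −74. Of the 35116 RefSeq promoter windows of this length, 34.6% held CCAAT on either strand. PSAT1 also held 1 GC box, which was found in 45% of windows, and MTHFD2 1 match to TGACNNNGC on the minus strand at position 7, which was found in 13.3%. None of the 3 held TGATGNAA or CACGTG, which were found in 3.62% and 7.26% of windows. No matches of different motifs overlapped in these 3 windows. Windows were at hand for 6 of the 9 genes, and those of the other 3, PSPH, SHMT2 and ALDH1L2, are not described. CCAAT was also in the windows of SHMT1 and MTHFD1, which were not called, with 2 matches each. MTHFD1L, not called either, has 4 windows, of which 3 overlap each other and share the same TGATGCAA, CACGTG and CCAAT, and MTHFD1 held 1 CACGTG. A match is a run of letters and not a measured binding site. Only exact matches in windows of 300 bases were searched, so a missing match does not speak to variant or more distant elements.

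The 6 libraries held 14091359 to 16036658 counts in RSM3 and 16637873 to 18594251 in Control. RSM3 replicate 1 differed more from the other RSM3 libraries (chi-square per degree of freedom of 18.0 and 16.2) than these did from each other (3.20), and Control replicates 1 and 2 were closer to each other (3.54) than to Control replicate 3 (8.14 and 7.27). RSM3 replicate 1 also carried relatively more of GC-rich transcripts, with a Spearman correlation across genes of 0.42 between its log2 deviation and transcript GC content, against −0.32 and −0.29 in the other RSM3 libraries and −0.21 to 0.15 in Control. The epithelial keratin genes KRT8 and KRT18 averaged 330 ± 76.6 and 186 ± 23.1 counts per 1000000 (CPM) in RSM3, against 279 ± 7.45 and 202 ± 0.636 CPM in Control. Of 7 leukocyte markers none reached the filter, and they summed to 0.451 to 1.28 CPM in RSM3 and 1.11 to 2.66 CPM in Control. Of 4 endothelial markers KDR fell (143 ± 20.8 CPM in RSM3, 208 ± 13.3 CPM in Control; edgeR adjusted p = 0.00977), PECAM1 was at 19.3 to 21.8 CPM in RSM3 and 23.1 to 26.2 CPM in Control, and VWF and CDH5 stayed at or below 0.129 CPM. The 6 fibroblast markers summed to 61.1 to 91.1 CPM in RSM3 and 81.8 to 99.8 CPM in Control, nearly all of it COL1A1, with DCN at 0, and the 4 muscle markers to 1.37 to 1.66 CPM in RSM3 and 1.58 to 2.66 CPM in Control. Leaving out RSM3 replicate 1 raised the number of all genes called from 662 to 2393. Leaving out any other library lowered it to 214 to 403. The part of GC content, single libraries and these markers in the results was not tested beyond the values given beside them. In bulk RNA, fewer expressing cells and less RNA per cell cannot be told apart.

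**Figure D1:**
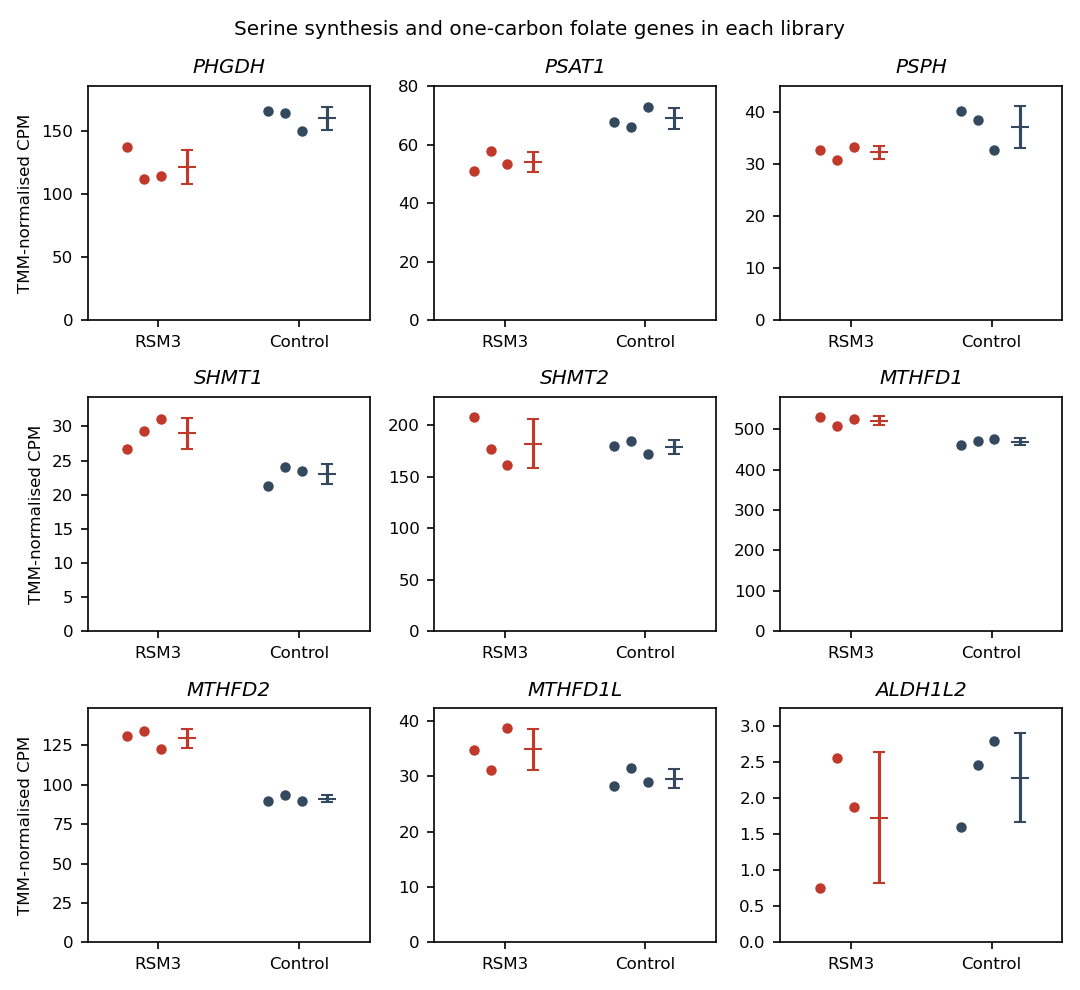
TMM-normalised CPM of each gene in the 3 RSM3 libraries (left) and the 3 Control libraries (right), with the mean ± SD beside the points and each axis starting at 0. PHGDH and PSAT1 lie lower in every RSM3 library than in any Control library, and SHMT1, MTHFD1 and MTHFD2 lie higher.

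PHGDH, 3-phosphoglycerate dehydrogenase, catalyses the committed step of serine synthesis (ENSG00000092621, chromosome 1, 119648411 to 119744226, plus strand, GRCh38). It had 1828, 1805 and 1783 counts in RSM3 replicates 1 to 3, which scale to 138, 113 and 115 CPM, and 2813, 2892 and 2848 counts in Control replicates 1 to 3, which scale to 166, 165 and 150 CPM. The lowest Control library lay above the highest RSM3 library, and RSM3 replicate 1, the library with more GC-rich RNA, lay closest to Control. Its mean was 122 ± 13.8 CPM in RSM3 and 160 ± 8.87 CPM in Control (SD, n = 3 each). The log2 fold change was −0.40 ± 0.09 (SE), with a 95% confidence interval of −0.60 to −0.20, a change of −24.1% (edgeR adjusted p = 0.0276). PHGDH transcript has a GC content of 58.3%, the highest of the 9. With a correction of each library for GC content and length, the log2 fold change was −0.37 (edgeR adjusted p = 0.000355), and without RSM3 replicate 1 it was −0.49 (edgeR adjusted p = 4.15e-07). The call was lost when any other library was left out, with edgeR adjusted p values of 0.127 and 0.134 without RSM3 replicates 2 and 3 and 0.155, 0.158 and 0.0534 without Control replicates 1, 2 and 3, although the direction held each time.

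PSAT1, phosphoserine aminotransferase, carries out the next step, with glutamate as the nitrogen donor (ENSG00000135069, chromosome 9, 78297143 to 78330093, plus strand). It stood at 50.9, 57.8 and 53.6 CPM in RSM3 replicates 1 to 3 (676, 927 and 831 counts) and at 67.8, 66.1 and 73.0 CPM in Control replicates 1 to 3 (1148, 1161 and 1384 counts). Again no RSM3 library reached the lowest Control library. The log2 fold change was −0.35 ± 0.09 (SE; 95% interval −0.54 to −0.16), or −21.5%, close to the threshold at an edgeR adjusted p = 0.0425. Here RSM3 replicate 1 was the lowest library, where for PHGDH it was the highest of its group, and the PSAT1 transcript has a GC content of 42.3%. The GC and length correction left the log2 fold change at −0.35 (edgeR adjusted p = 0.00248). Without RSM3 replicate 1 PSAT1 was called at −0.31 (edgeR adjusted p = 0.0051), and without RSM3 replicates 2 or 3 or Control replicates 1, 2 or 3 it was not (edgeR adjusted p = 0.0664, 0.145, 0.158, 0.135 and 0.174).

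PSPH, phosphoserine phosphatase, releases free serine (ENSG00000146733, chromosome 7, 56011051 to 56051604, minus strand). It stood at 32.7, 30.8 and 33.3 CPM in RSM3 replicates 1 to 3 and at 40.3, 38.5 and 32.6 CPM in Control replicates 1 to 3. Control replicate 3 lay within the RSM3 values, so the groups overlapped. The log2 fold change was −0.20 ± 0.11 (SE; 95% interval −0.43 to 0.02; edgeR adjusted p = 0.348), and a change like that of PSAT1 lies inside this interval. Its unprocessed pseudogene PSPHP1 had 24 to 29 counts in RSM3 and 19 to 25 in Control beside 434 to 517 counts of PSPH in RSM3 and 619 to 682 in Control. The 3 serine synthesis genes summed to 221, 201 and 202 CPM in RSM3 replicates 1 to 3 and to 274, 269 and 256 CPM in Control replicates 1 to 3.

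MTHFD2, the mitochondrial methylenetetrahydrofolate dehydrogenase and cyclohydrolase, had the largest change of the 3 genes called (ENSG00000065911, chromosome 2, 74198562 to 74217565, plus strand). It stood at 131, 134 and 123 CPM in RSM3 replicates 1 to 3 (1740, 2152 and 1905 counts) and at 89.8, 93.5 and 89.9 CPM in Control replicates 1 to 3 (1520, 1641 and 1705 counts). The groups were well apart, with a mean of 129 ± 5.91 CPM in RSM3 and 91.1 ± 2.10 CPM in Control (SD, n = 3 each). The log2 fold change was 0.51 ± 0.08 (SE; 95% interval 0.34 to 0.67), or 42.0% (edgeR adjusted p = 0.00229), and its unadjusted p ranked 123 among the 15773 genes tested. It passed when each of the 6 libraries was left out, with log2 fold changes of 0.48 to 0.54 and edgeR adjusted p values of 5.57e-07 to 0.0323. GENCODE 29 places exons of SLC4A5 on the opposite strand over 1324 bases of MTHFD2 exons, and SLC4A5 stood at 0.376 to 1.12 CPM in RSM3 and 0.886 to 1.69 CPM in Control, far below MTHFD2. The 7 processed pseudogenes named for MTHFD2 had at most 2 counts in any library.

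With a term for Control replicates 1 and 2, which compares RSM3 with Control replicate 3 alone and assumes that this library varies like the others, none of the 3 calls held in edgeR. PHGDH then stood at −0.30, PSAT1 at −0.43 and MTHFD2 at 0.52 on the log2 scale, with edgeR adjusted p values of 0.417, 0.195 and 0.0858 and unadjusted p values of 0.0420, 0.00535 and 0.00113.

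**Figure D2:**
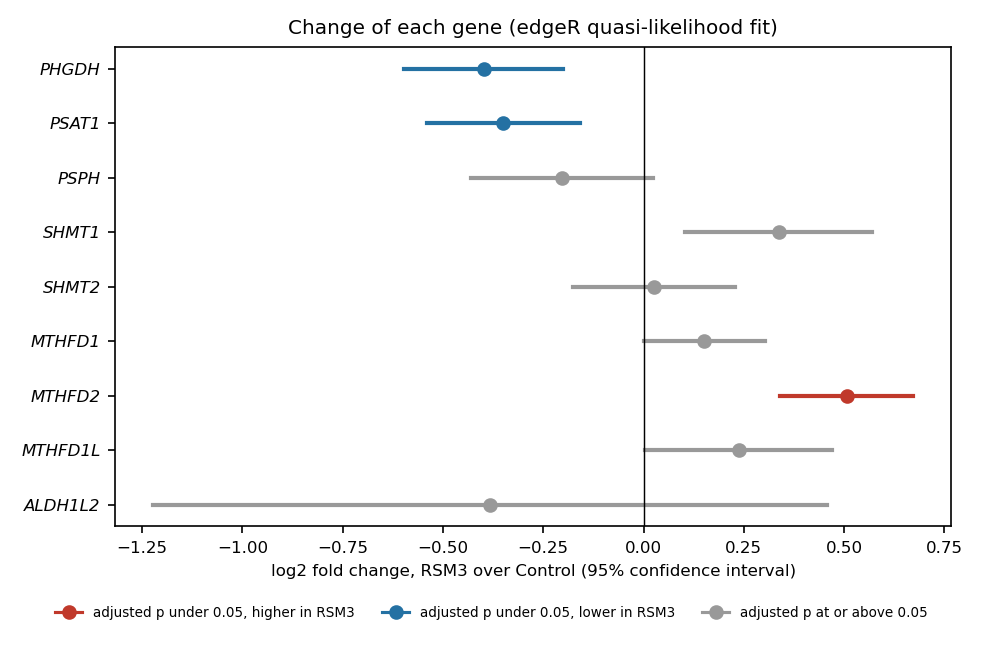
Log2 fold change of RSM3 over Control for each gene (points) with its 95% confidence interval (bars), from the edgeR fit to all genes. MTHFD2 lies to the right at 0.51, PHGDH and PSAT1 to the left at −0.40 and −0.35, and the interval of ALDH1L2 is the widest, from −1.22 to 0.46.

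The rest of the mitochondrial branch did not follow MTHFD2 past the threshold. SHMT2, mitochondrial serine hydroxymethyltransferase (ENSG00000182199, chromosome 12, 57229327 to 57234935, plus strand), stood at 208, 177 and 161 CPM in RSM3 replicates 1 to 3 and at 180, 184 and 172 CPM in Control replicates 1 to 3. Its RSM3 libraries lay on both sides of Control, with the GC-rich replicate 1 the highest. The log2 fold change was 0.03 ± 0.09 (SE; 95% interval −0.18 to 0.23; edgeR adjusted p = 0.925). MTHFD1L, the mitochondrial formyltetrahydrofolate synthetase that yields formate (ENSG00000120254, chromosome 6, 150865549 to 151101887, plus strand), stood at 34.8, 31.1 and 38.7 CPM in RSM3 and 28.2, 31.5 and 28.998 CPM in Control replicates 1 to 3. One RSM3 library lay below the highest Control library, and the log2 fold change was 0.24 ± 0.11 (SE, 95% interval 0.0046 to 0.47, edgeR unadjusted p = 0.0462, edgeR adjusted p = 0.270). ALDH1L2, mitochondrial formyltetrahydrofolate dehydrogenase (ENSG00000136010, chromosome 12, 105019784 to 105084577, minus strand), had 10, 41 and 29 counts in RSM3 replicates 1 to 3 and 27, 43 and 53 in Control replicates 1 to 3. At this depth its log2 fold change of −0.38 ± 0.39 (SE; 95% interval −1.22 to 0.46; edgeR adjusted p = 0.678) does not separate a fall from a rise, and it ran from −0.77 without RSM3 replicate 2 to −0.04 without RSM3 replicate 1.

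The cytosolic branch lay higher in RSM3 in all libraries without passing the test. SHMT1, cytosolic serine hydroxymethyltransferase (ENSG00000176974, chromosome 17, 18327860 to 18363563, minus strand), stood at 26.6, 29.3 and 31.1 CPM in RSM3 replicates 1 to 3 and at 21.3, 24.1 and 23.5 CPM in Control replicates 1 to 3, so the groups did not overlap. Its log2 fold change was 0.34 ± 0.11 (SE; 95% interval 0.10 to 0.57; edgeR adjusted p = 0.108). SHMT1 passed without RSM3 replicate 1 (0.39, edgeR adjusted p = 0.00827) and with the GC and length correction (0.35, edgeR adjusted p = 0.028). Those fits called 2393 and 1663 of all genes, against 662 in the main fit. SMCR8, on the opposite strand, shares 196 exonic bases with SHMT1 and was more abundant. SMCR8 stood at 70.2 to 90.3 CPM in RSM3 and 73.9 to 81.9 CPM in Control. Whether its reads entered the SHMT1 counts was not tested. MTHFD1 is the cytosolic enzyme with dehydrogenase, cyclohydrolase and synthetase activities (ENSG00000100714, chromosome 14, 64388031 to 64463457, plus strand). It stood at 531, 508 and 524 CPM in RSM3 and at 460, 470 and 476 CPM in Control replicates 1 to 3. These groups did not overlap either, and with the deepest counts of the 9 the log2 fold change was 0.15 ± 0.07 (SE, 95% interval 0.00083 to 0.30, edgeR unadjusted p = 0.0489, edgeR adjusted p = 0.278). The share of all genes tested whose RSM3 libraries lay above every Control library was 12.8%.

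Levels were compared between genes per kb of 1 transcript each, the longest APPRIS principal transcript of GENCODE 29, so the order depends on that choice. In RSM3 the order of mean CPM per kb was MTHFD1 (166), SHMT2 (71.7), PHGDH (47.1), MTHFD2 (29.03), PSAT1 (24.7), PSPH (14.8), SHMT1 (11.8), MTHFD1L (9.67) and ALDH1L2 (0.229). In Control the order was MTHFD1 (150), SHMT2 (70.4), PHGDH (62.0), PSAT1 (31.5), MTHFD2 (20.4), PSPH (17.1), SHMT1 (9.33), MTHFD1L (8.20) and ALDH1L2 (0.302). Library values of neighbours in these orders did not overlap, except those of SHMT1 and MTHFD1L in Control. MTHFD2 and PSAT1 exchanged places between the groups.

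**Figure D3:**
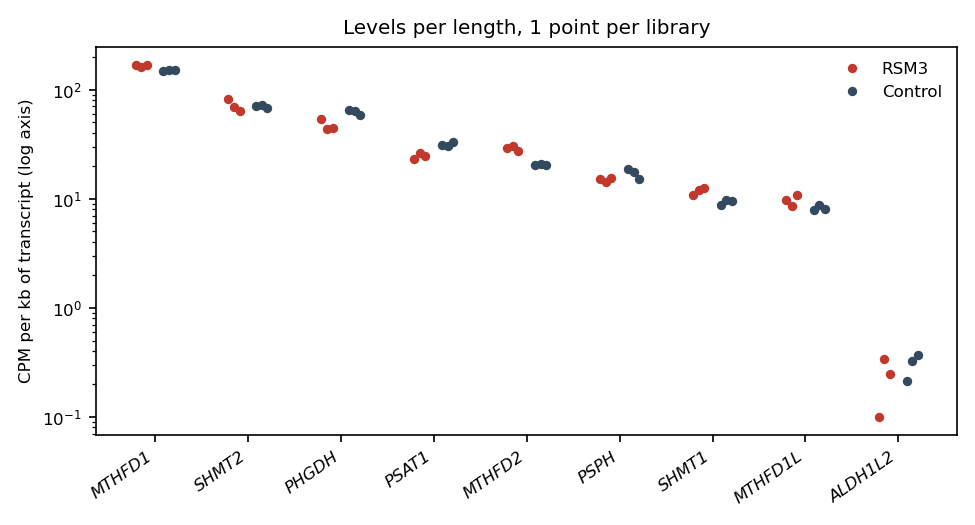
CPM per kb of transcript of each gene on a log axis, with 1 point per library, RSM3 left of Control for each gene and genes ordered by their Control mean. MTHFD1 is the highest at 166 CPM per kb in RSM3 and 150 CPM per kb in Control, and MTHFD2 lies above PSAT1 in RSM3 and below it in Control.

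The 9 genes together took 0.109, 0.108 and 0.107% of all counts in RSM3 replicates 1 to 3 and 0.107, 0.109 and 0.107% in Control replicates 1 to 3. PHGDH made up 11.0 ± 0.829% of the counts of the 9 in RSM3 and 15.1 ± 0.738% in Control, whereas MTHFD2 made up 11.7 ± 0.599% in RSM3 and 8.59 ± 0.0916% in Control (SD, n = 3 each). MTHFD1 alone held 46.0 to 48.5% in RSM3 and 43.6 to 45.4% in Control.

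Ratios of 2 genes within a library do not depend on how libraries are scaled. They are not corrected for GC content, which is 41.4% in the MTHFD2 transcript and 58.3% in that of PHGDH. The part of GC content in the ratios was not tested. There were 0.952, 1.19 and 1.07 MTHFD2 counts per PHGDH count in RSM3 replicates 1 to 3 and 0.540, 0.567 and 0.599 in Control replicates 1 to 3. The ratio of MTHFD2 to SHMT2 was 0.630, 0.759 and 0.763 in RSM3 and 0.499, 0.507 and 0.523 in Control. Both ratios were higher in each RSM3 library than in any Control library. By contrast, PSAT1 per PHGDH count ran from 0.370 to 0.514 in RSM3 and from 0.401 to 0.486 in Control, with RSM3 replicate 1 the lowest of all 6. SHMT1 per SHMT2 count was 0.128 to 0.193 in RSM3 and 0.118 to 0.137 in Control, which overlapped. No test was run on these ratios, since the genes were chosen with their changes known.

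**Figure D4:**
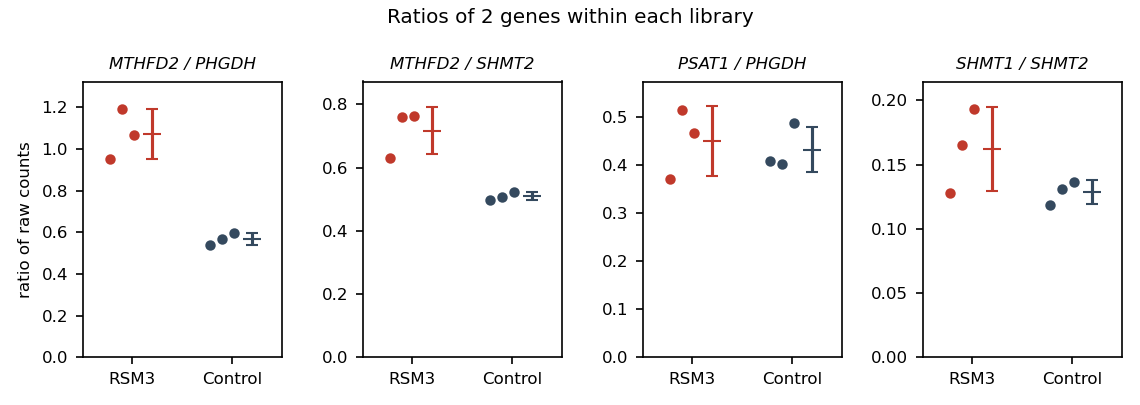
Ratios of raw counts of 2 genes within each of the 3 RSM3 libraries (left) and the 3 Control libraries (right), with the mean ± SD beside the points and axes starting at 0. MTHFD2 over PHGDH is 0.952 to 1.19 in RSM3 and 0.540 to 0.599 in Control, while PSAT1 over PHGDH overlaps between the groups.

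Genes whose profile over the 6 libraries was nearest to a called gene were taken by the root mean square difference of mean-centred log2 CPM, among 11264 genes with at least 5 CPM on average. The likeness takes in the difference between the groups, so that these genes differ the same way follows from how they were picked, and their levels are given with no test. Nearest to PHGDH were KCNN4, a calcium-activated potassium channel (0.0328), PLEKHG5, a guanine nucleotide exchange factor (0.0382), and PRAME, a cancer-testis antigen (0.0393). KCNN4 averaged 65.4 ± 7.17 CPM in RSM3 and 85.7 ± 4.62 CPM in Control. Nearest to PSAT1 were PDCD2 (0.0247), CASP2, which encodes caspase-2 (0.0276), and GVQW3 (0.0311). CASP2 averaged 70.0 ± 4.10 CPM in RSM3 and 88.9 ± 3.74 CPM in Control. Nearest to MTHFD2 were INAVA (0.0388), VGLL4, a TEAD cofactor (0.0398), and MYL12A, a myosin regulatory light chain (0.0491). VGLL4 averaged 87.7 ± 1.76 CPM in RSM3 and 61.0 ± 0.997 CPM in Control.

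Neighbouring steps of the pathway were followed in 8 lists of 79 genes. Counts of called genes in them stand against 4.20% of all genes tested, 3.09% higher and 1.10% lower. None of 6 tested genes of folate uptake, reduction and polyglutamation passed (median log2 fold change 0.05, against −0.0048 for all genes tested). SLC19A1, the reduced folate carrier, stood at 52.6 ± 9.05 CPM in RSM3 and 57.7 ± 3.60 CPM in Control (edgeR adjusted p = 0.609). It passed, lower in RSM3, without RSM3 replicate 1 (edgeR adjusted p = 0.0194), a fit in which 2393 of all genes passed. Among other folate-interconverting enzymes, MTHFD2L, the paralog of MTHFD2 in mitochondria, stood at 26.1 ± 5.39 CPM in RSM3 and 29.9 ± 2.12 CPM in Control (log2 fold change −0.19 ± 0.14, edgeR adjusted p = 0.533), and without RSM3 replicate 1 its log2 fold change was −0.04.

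Genes that take up the products of the pathway showed single members past the threshold, which 4.20% of all genes tested passed. TYMS, thymidylate synthase, which consumes the methylenetetrahydrofolate that SHMT enzymes make, stood at 187, 181 and 183 CPM in RSM3 replicates 1 to 3 and at 136, 113 and 115 CPM in Control replicates 1 to 3 (log2 fold change 0.60 ± 0.09, edgeR adjusted p = 0.00179). It was the 1 gene of 11 of purine and thymidylate synthesis that passed as higher, none passed as lower, and the list's median was 0.04. Of the 11, 3 lay higher in every RSM3 library than in any Control library, and 1, PFAS, lay lower. Over all genes tested these shares were 12.8% and 11.1%. PAICS, a purine synthesis enzyme, stood at 489 ± 51.0 CPM in RSM3 and 466 ± 22.4 CPM in Control (edgeR adjusted p = 0.748). PAICS passed without RSM3 replicate 1 (edgeR adjusted p = 0.0454), a fit in which 2393 of all genes passed, against 662 with all libraries. CTH, cystathionine gamma-lyase, which ends the route from serine to cysteine, rose and was the 1 called of 9 tested genes of the methionine cycle and transsulfuration (median −0.0085). CTH stood at 24.0, 25.5 and 24.3 CPM in RSM3 replicates 1 to 3 and at 15.7, 15.7 and 15.4 CPM in Control replicates 1 to 3 (log2 fold change 0.66 ± 0.11, edgeR adjusted p = 0.00358). In that list 3 log2 fold changes were above 0 and 6 below. CBS, of the same list, was scarce and lay lower, at 0.437 to 1.43 CPM in RSM3 and 1.58 to 2.11 CPM in Control. Its log2 fold change was −1.15 ± 0.42 (edgeR adjusted p = 0.167), and CBS was named after its values were seen. The term for Control replicates 1 and 2 ended the call of CTH (edgeR adjusted p = 0.0950) and not that of TYMS (edgeR adjusted p = 0.0464). MAT2A, which makes S-adenosylmethionine, averaged 757 ± 37.3 CPM in RSM3 and 758 ± 30.5 CPM in Control (edgeR adjusted p = 0.995).

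Of 10 tested genes of serine transport and use, SPTLC2, a subunit of the serine palmitoyltransferase that starts sphingolipid synthesis, rose and the other 9 did not pass (median 0.03). Of all genes tested, 4.20% passed. SPTLC2 stood at 107, 122 and 119 CPM in RSM3 replicates 1 to 3 and at 80.0, 80.0 and 83.0 CPM in Control replicates 1 to 3 (log2 fold change 0.52 ± 0.08, edgeR adjusted p = 0.00296), a call lost with the term for Control replicates 1 and 2 (0.49, edgeR adjusted p = 0.141). PTDSS1, which exchanges serine into phosphatidylserine, averaged 339 ± 11.0 CPM in RSM3 and 330 ± 9.17 CPM in Control (edgeR adjusted p = 0.838). None of 3 tested genes of the glycine cleavage system passed (median 0.20). DLD, its dihydrolipoamide dehydrogenase, averaged 146 ± 17.5 CPM in RSM3 and 131 ± 0.703 CPM in Control (edgeR adjusted p = 0.395). DLD passed without RSM3 replicate 1 (edgeR adjusted p = 0.00211), a fit in which 2393 of all genes passed. GLDC, the glycine decarboxylase, averaged 10.8 ± 1.59 CPM in RSM3 and 8.44 ± 0.499 CPM in Control (edgeR adjusted p = 0.258). AMT, also of this system, did not reach the filter, at 0.125 to 0.322 CPM in RSM3 and 0 to 0.105 CPM in Control. AMT was named after its values were seen.

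Among 23 other ATF4 and amino acid response genes, ATF3, CHAC1, STC2 and PPP1R15A passed as higher, none passed as lower and 19 did not pass (median 0.20). Of all genes tested, 3.09% were called higher and 1.10% lower. The log2 fold change was above 0 for 16 of the 23 and below 0 for 7. Of the enzymes themselves, MTHFD2 rose while PHGDH and PSAT1 fell. ATF3, a transcription factor of stress and early response, averaged 17.5 ± 2.72 CPM in RSM3 and 8.40 ± 1.11 CPM in Control (edgeR adjusted p = 0.00187). STC2, a secreted glycoprotein gene, averaged 207 ± 17.8 CPM in RSM3 and 132 ± 11.6 CPM in Control (edgeR adjusted p = 0.00143), and PPP1R15A, which directs eIF2α dephosphorylation, 131 ± 17.5 CPM in RSM3 and 87.5 ± 4.44 CPM in Control (edgeR adjusted p = 0.00455). CHAC1, which degrades glutathione, averaged 26.5 ± 6.40 CPM in RSM3 and 15.0 ± 2.02 CPM in Control (edgeR adjusted p = 0.0135), a call lost without Control replicate 2 or 3 (edgeR adjusted p = 0.0929 and 0.0676). With the term for Control replicates 1 and 2, STC2, PPP1R15A and CHAC1 lost their calls (edgeR adjusted p = 0.119, 0.0903 and 0.138) and ATF3 kept its own (edgeR adjusted p = 0.0255). ATF4 itself stood at 138 ± 14.1 CPM in RSM3 and 117 ± 7.77 CPM in Control (log2 fold change 0.24 ± 0.09, edgeR adjusted p = 0.188), a gene named after its value was seen.

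**Figure D5:**
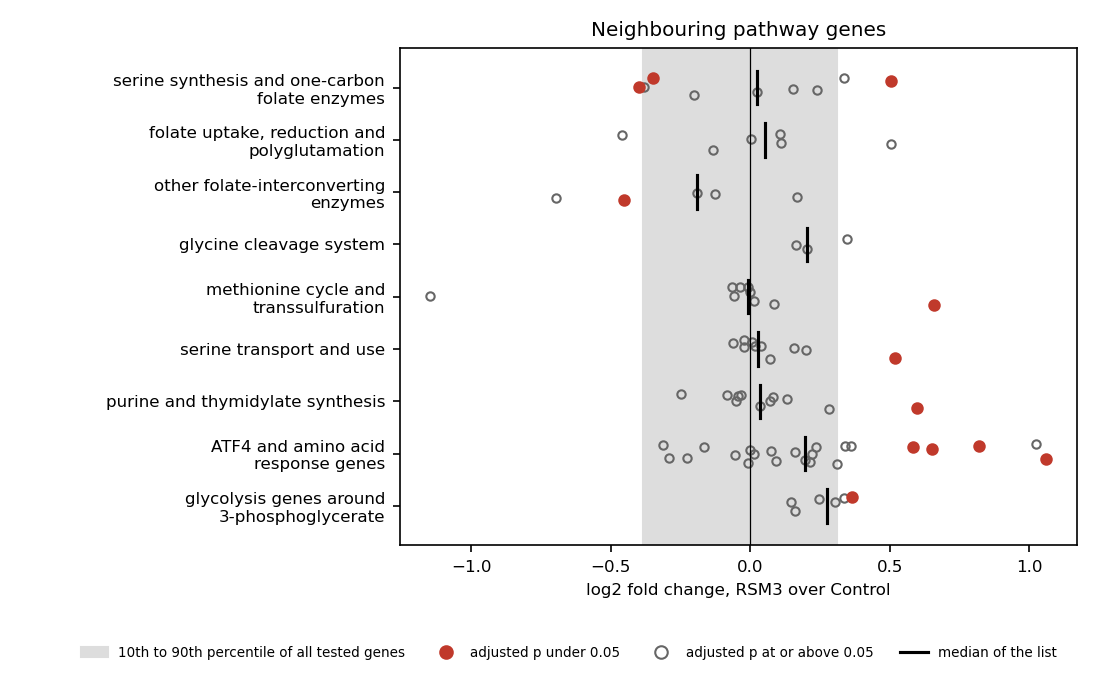
Log2 fold change of RSM3 over Control for each tested gene (points) of the 9 enzymes and of 8 neighbouring lists, with filled points past an edgeR adjusted p of 0.05, a bar at each median and a grey band from −0.38 to 0.31 that holds the 10th to 90th percentile of all genes tested. The list medians run from −0.19 to 0.28, inside the grey band. The amino acid response list holds 4 called genes and each other neighbouring list at most 1.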

How the data were processed

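Poly(A) RNA of 6 PC3 samples was sequenced in 3 RSM3 and 3 Control libraries, with strands marked by dUTP, per the labels' protocols. The authors deposited raw counts per gene. Software listed in the submitters' processing notes, without roles, was featureCounts, STAR (2.7.1a), fastp and DESeq2, with the build hg38. Which annotation and strand setting were used is not given in the sources used here, so overlapping genes and near-identical copies are uncertain. Of 14 rows named as pseudogenes of these enzymes, 10 had 0 counts.

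Genes were filtered with filterByExpr (minimum count 10), scaled by TMM and tested with the quasi-likelihood test of edgeR (4.0.16, R 4.3.3), with no covariate and Benjamini-Hochberg adjustment over 15773 genes. CPM values are TMM-normalised, with group means ± SD. Counts of 14091359 to 18594251 per library set the precision, and intervals are 95% from the fit. No pair of replicates agreed within counting error. Same-numbered RSM3 and Control libraries did not deviate together (correlations 0.030, −0.025 and 0.044).

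Alternatives used DESeq2 (1.42.0) and limma voom (3.58.1), among others. Scripts were tested on simulated data. The GC and length correction (loess, span 0.5, degree 2) and the term for Control replicates 1 and 2 were chosen after seeing the data, and the enzymes and lists with earlier results of these data known. Named genes were the 9 enzymes, the genes of each list past the threshold (or the most abundant, to make 2) and the 3 nearest profiles of each called enzyme. Some genes under this rule are not reported here. Coordinates, length and GC content are from GENCODE 29 (GRCh38), sequences from RefSeq (GRCh38.p14).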

Additional observations from a re-analysis of the deposited data

How the results depend on the processing

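Over 15 alternatives for each of the 9 enzymes, 116 of 135 values kept their direction and side of the threshold, 14 lost the call, 2 gained it and 3 changed sign. Of all genes, 662 were called, 488 higher and 174 lower. With library size alone 562 were called, 308 higher (54.8%, against 73.7% with TMM) and 254 lower, and the same 3 enzymes passed. Counts that moved by over 1.5 times were 1083 with no filter, 1663 after correcting for GC and length, 118 where Control replicates 1 and 2 had their own term, and 214 (without Control replicate 2) to 2393 (without RSM3 replicate 1) when 1 library was left out. The 3 enzymes called became 1 to 4 when 1 library was left out and 0 where Control replicates 1 and 2 had their own term, a fit in which a single Control library carries the comparison. With the replicate number as a block, 653 genes and 2 enzymes were called. PSAT1 then lost its call (−0.35, edgeR adjusted p = 0.0537), and a shared number was no evidence of pairing. SHMT2, near 0 throughout, was −0.0351 with library size alone, −0.0790 without RSM3 replicate 1, −0.00215 without Control replicate 3 and up to 0.108 without RSM3 replicate 3. Among uncalled neighbours, MAT2A was 0.000621 with no filter, 0.0153 after correcting for GC and length, and −0.0386 (without RSM3 replicate 1) to 0.0328 (without Control replicate 3) when 1 library was left out, with 0.00723 and 0.0326 without RSM3 replicates 2 and 3. PTDSS1 was −0.0193 with library size alone and −0.00435 with the Control term, where PAICS was −0.00337. Where a cause is not named here, the cause was not tested. Depth limits ALDH1L2 most.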

Other observations

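Glycolysis genes around 3-phosphoglycerate, the precursor of serine, had log2 fold changes above 0 in 6 of 6 cases, against 7736 of all 15773 genes tested. Their median was 0.28, and 1 of them passed the test, against 4.20% of all genes tested. PGK1, which makes 3-phosphoglycerate, rose to 1785, 1807 and 1735 CPM in RSM3 replicates 1 to 3, against 1306, 1361 and 1475 CPM in Control replicates 1 to 3 (log2 fold change 0.36 ± 0.08, edgeR adjusted p = 0.0182). Its call was lost without RSM3 replicate 2 or 3 or Control replicate 1 or 2, and with the term for Control replicates 1 and 2 (edgeR adjusted p = 0.0685 to 0.39). GAPDH averaged 3270 ± 623 CPM in RSM3 and 2651 ± 68.0 CPM in Control (edgeR adjusted p = 0.17), with RSM3 replicate 1 at 3989 CPM, above the other 2 RSM3 libraries at 2917 and 2904 CPM. Without RSM3 replicate 1 the log2 fold change of GAPDH was 0.14, against 0.30 with it. PKM, pyruvate kinase, stood at 3558 CPM in RSM3 replicate 1, while RSM3 replicates 2 and 3, at 2797 and 2781 CPM, lay within the Control range of 2670.2 to 2859 CPM. PKM was named after its values were seen.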
